A study of Homo sapiens with 6 samples.

Results

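The genes described here encode proteins of cell adhesion: 4 cadherins (CDH1, CDH2, CDH3 and CDH11), 4 catenins (CTNNA1, CTNNB1, CTNND1 and JUP) and the adhesion molecule EPCAM. They were taken by symbol from the deposited table, which held all 9 among 60664 genes, and all 9 passed the filter on low counts along with 17147 genes in all. The study sequenced mRNA of HCT8, a line established from a human colorectal cancer, in 6 libraries. In 3 libraries the cells had been transfected with a KDM4A overexpression plasmid (genotype label KDM4A-overexpressing), and in 3 with a control plasmid (genotype label WT). KDM4A is a histone demethylase, and the study's title asks which signaling it regulates in colorectal cancer. All 6 libraries carry batch number 1, and every culture was grown in DMEM with serum. Neither the transfection time nor the plasmid insert is given in the sources used here. Whether the 3 libraries of a group stem from 3 cultures is not labelled, and the p-values below therefore rest on a spread that may be technical.

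Classical cadherins hold neighbouring cells together through their extracellular domains, in a calcium-dependent way. Their cytoplasmic tails bind p120-catenin (CTNND1) near the membrane, and beta-catenin (CTNNB1) or its close relative plakoglobin (JUP) farther along, and alpha-catenin (CTNNA1) ties that complex to actin. Beta-catenin that is not held at a cadherin is either degraded by the APC and axin complex or enters the nucleus and works with TCF/LEF factors in Wnt signaling. In gut epithelium E-cadherin (CDH1) is the main classical cadherin, whereas N-cadherin (CDH2) is typical of neural and mesenchymal cells. EPCAM is an epithelial surface glycoprotein, abundant in colorectal carcinoma.

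Library totals ranged from 14284240 to 23905980 counts. KDM4A itself stood at 151.9, 156.5 and 159.7 CPM (read counts scaled to library size) in the KDM4A plasmid libraries, against 42.8, 45.8 and 45.2 CPM in the control plasmid libraries. Of 11 colon epithelium markers, 9 could be tested and all 9 were called higher with the KDM4A plasmid, against 40.0% of all genes tested. The summed level of the 11 markers was 3129 to 3408 CPM in KDM4A plasmid libraries and 226 to 240 CPM in control plasmid libraries. Of the 11, 2 defining markers were near 0 in both groups (KRT20 with 11 and 7 counts, GPA33 with 2 and 3). Of 8 embryonic kidney markers, 2 rose, 4 fell and 1 did not pass among the 7 tested, and their sum was 75.1 to 81.0 CPM against 110.4 to 119.0 CPM. Fibroblast markers summed to 14.2 to 16.8 CPM against 21.1 to 22.2 CPM. Of these 9, 5 were tested, with 1 called higher and 2 lower. Leukocyte markers summed to 4.06 to 4.65 CPM against 1.71 to 3.50 CPM (2 of 5 tested, 1 called higher, 0 lower), and endothelial markers to at most 1.10 CPM with none testable. FAP among the fibroblast markers and CDH5 among the endothelial ones had 0 counts in the controls. These counts of called markers stand beside 40.0% of all genes tested called higher and 38.6% called lower. CDX1 (colon), PAX8 (kidney), PDGFRB (fibroblast) and CD14 (leukocyte) passed the filter on low counts only through the KDM4A plasmid libraries. Each was higher there, so their calls depend on that selection. That either group holds HCT8 cells rests on the labels, and the part of these marker differences in the results below was not tested. Counts from whole cultures cannot tell apart fewer cells of a type and less RNA per cell.

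The cadherin makeup differed between the groups. CDH1, CDH3, JUP, CTNND1 and EPCAM were higher in the KDM4A plasmid group by factors of 2.09 to 17.7 (ratio of mean CPM), CDH2 was lower, and CTNNA1 was 1.18-fold higher. CTNNB1 was not called. In all, 8 of 9 genes passed the test (edgeR quasi-likelihood, Benjamini-Hochberg adjusted p under 0.05 over 17147 genes), where 78.6% of all genes tested did, so the count alone does not set them apart. Of the 9, 7 were called higher against 40.0% of all genes, and 1 lower against 38.6%. The libraries of the groups did not overlap for 8 of the 9, against 79.7% of all genes. The median log2 fold change of the 9 was 1.65, which is the value of CDH11, and that of all genes tested was 0.03. CDH11 passed the filter on low counts only through the KDM4A plasmid libraries, where it was higher. It is included in these counts of called and non-overlapping genes.

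**Figure D1:**
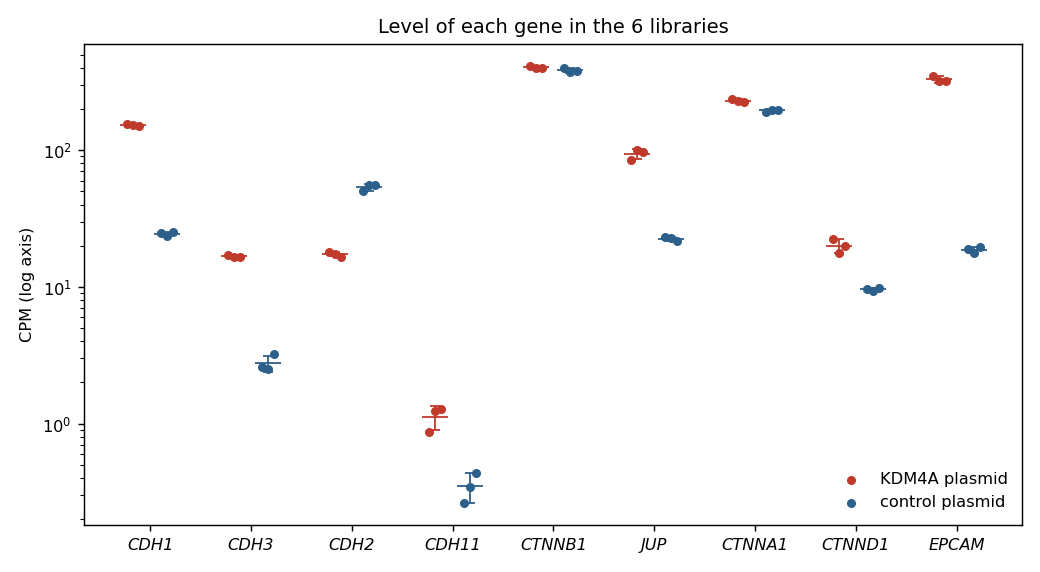
Level of each gene in CPM (log axis); points are the 6 single libraries, horizontal bars the mean and whiskers the SD of 3 libraries. The groups lie apart for every gene except CTNNB1, and only CDH2 is lower with the KDM4A plasmid.

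E-cadherin transcripts were about 6-fold more abundant in the KDM4A plasmid libraries. CDH1 (ENSG00000039068, chromosome 16, 68737292 to 68835537, plus strand, GRCh38.p13) had 155.5, 152.5 and 151.2 CPM in KDM4A plasmid libraries, against 24.6, 23.5 and 25.3 CPM in control plasmid libraries. All 3 KDM4A plasmid libraries lay far above the highest control, and within each group the libraries differed by less than counting error (SD 1.45% and 3.71% of the mean, with counting error of 1.89% and 4.44%). The log2 fold change was 2.64 (SE 0.06, edgeR adjusted p = 8.39e-17).

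P-cadherin, a classical cadherin of basal and proliferating epithelial layers, rose by a similar factor at a lower level. CDH3 (chromosome 16, 68636189 to 68727468, plus strand) had 17.1, 16.6 and 16.5 CPM in KDM4A plasmid libraries, against 2.59, 2.52 and 3.20 CPM in control plasmid libraries. The groups did not overlap, and the log2 fold change was 2.58 (SE 0.11, adjusted p = 9.19e-13). CDH3 ends 9824 bases before CDH1 begins, on the same strand, and their intervals of 2.34 to 2.82 and 2.52 to 2.77 overlap. The protein-coding genes on either side of the pair went the other way. ZFP90, a zinc finger gene before CDH3, averaged 27.4 ± 1.23 CPM with the KDM4A plasmid and 45.0 ± 0.622 CPM with the control plasmid (SD, n = 3 each, log2 fold change -0.72), and TANGO6, after CDH1, had a log2 fold change of -0.44.

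N-cadherin fell. CDH2 (ENSG00000170558, chromosome 18, 27932879 to 28177946, minus strand) had 18, 17.4 and 16.6 CPM in KDM4A plasmid libraries, against 50.2, 55.3 and 55.8 CPM in control plasmid libraries. Every KDM4A plasmid library was below every control. The log2 fold change was -1.63 (SE 0.07, adjusted p = 5.43e-13), which left 0.323 of the control level. The nearest protein-coding genes of the table on its sides were also lower: the desmosomal cadherin gene DSC3, 2811419 bases away, by a log2 fold change of -1.87 (SE 0.06), and CHST9 by -0.72 (SE 0.22).

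CDH11, an osteoblast and mesenchymal cadherin, was close to the limit of detection in both groups. It had 15, 29 and 18 counts in KDM4A plasmid libraries and 5, 7 and 10 counts in control plasmid libraries, which is 1.12 ± 0.218 CPM and 0.349 ± 0.0872 CPM (SD, n = 3). The lowest KDM4A plasmid library was above the highest control, and the log2 fold change was 1.65 (SE 0.32, adjusted p = 1.28e-04) with a wide interval of 0.98 to 2.32, and it was 2.31 with GC and length trends removed. So few counts place it among the genes whose level is least certain, and it was not tested under a filter of 1 CPM and 10 counts in 3 libraries. CDH11 passed the main filter only through the KDM4A plasmid libraries. Its call and p-value therefore depend on a selection by the group where it was higher.

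Set against each other per kilobase of exon, the 4 cadherins changed places. CDH1 made up 79.3%, 79.3% and 79.6% of their summed CPM per kb in KDM4A plasmid libraries, and 28.1%, 25.3% and 26.4% in control plasmid libraries. CDH2 made up 11%, 10.9% and 10.5% in KDM4A plasmid libraries, against 68.5%, 71.5% and 69.7% in control plasmid libraries. CDH3 held 9.37% ± 0.0404 and 3.24% ± 0.339 (SD, n = 3), and CDH11 held under 0.5% in every library. The per-length ratio of CDH1 to CDH2 was 7.37 ± 0.199 with the KDM4A plasmid and 0.381 ± 0.0281 with the control plasmid. The sum of the 4 was also higher, at 40.1 ± 0.666 CPM per kb against 19.1 ± 0.862 CPM per kb. These shares do not depend on how libraries are scaled to each other, because each is taken within a library.

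**Figure D2:**
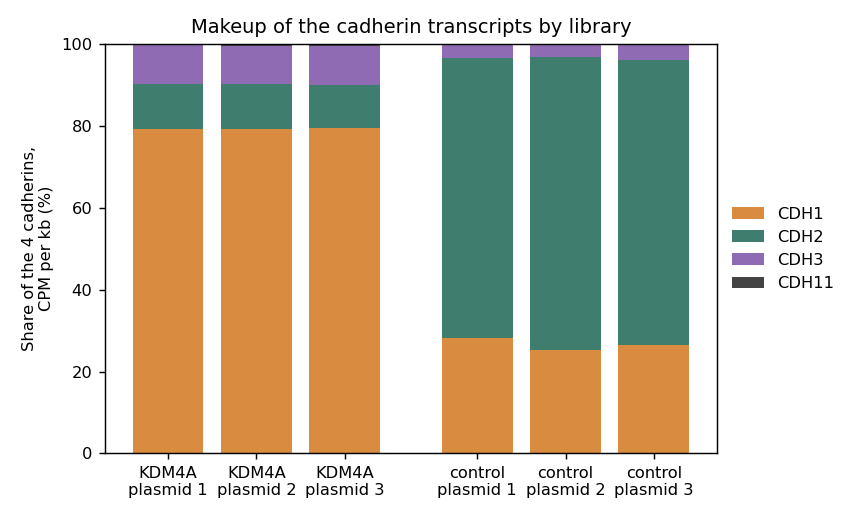
Share of CDH1, CDH2, CDH3 and CDH11 in their summed CPM per kb of exon, in percent, for each of the 6 libraries (KDM4A plasmid libraries at left, control plasmid libraries at right). CDH1 is the largest share in each KDM4A plasmid library, at 79.3% to 79.6%, and CDH2 in each control plasmid library, at 68.5% to 71.5%.

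Beta-catenin, the catenin shared by adhesion and Wnt signaling, was abundant and was not called. CTNNB1 (ENSG00000168036, chromosome 3, 41194741 to 41260096, plus strand) had 414.2, 399.5 and 402.5 CPM in KDM4A plasmid libraries, against 401.2, 371.1 and 380.2 CPM in control plasmid libraries. The highest control lay above the lowest KDM4A plasmid library, so the groups overlapped. The log2 fold change was 0.08 (SE 0.05, adjusted p = 0.187), with a 95% interval that spans ratios of 0.977 to 1.14. A call did appear once trends with gene length were removed from the counts (log2 fold change 0.16, adjusted p = 0.00525), and with GC and length trends removed it was 0.35 (adjusted p = 1.09e-07), a setting chosen after the data were seen. Over all settings the adjusted p lay between 1.09e-07 and 1.

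Plakoglobin, which takes beta-catenin's place in adherens junctions and also links desmosomes, rose about 4-fold. JUP (ENSG00000173801, chromosome 17, 41754604 to 41786931, minus strand) had 84.3, 100 and 97.7 CPM in KDM4A plasmid libraries, against 23.2, 22.6 and 21.6 CPM in control plasmid libraries. The groups lay far apart, although the KDM4A plasmid libraries varied by more than counting error (SD 9.05% of the mean, counting error 2.40%), with replicate 1 the lowest. The log2 fold change was 2.07 (SE 0.07, adjusted p = 2.98e-14). Per kilobase, JUP made up 17.5%, 20.7% and 20.2% of the sum of JUP and CTNNB1 in KDM4A plasmid libraries, and 5.70%, 5.98% and 5.60% in control plasmid libraries. Most of that pool was therefore CTNNB1 in every library.

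Upstream sequences are printed for JUP and CTNNB1, the pair of relatives of which the first was called and the second was not, and for CDH2, the gene that fell. They are the 250 bases before RefSeq start sites (GRCh38.p14), and 4 of the 9 genes (CDH2, CTNNA1, CTNNB1 and JUP) matched the RefSeq table, with 9 windows in all. Capitals mark the E-box CAGGTG, read on either strand (as CACCTG on the strand shown where reversed), a letter pattern that Snail and ZEB repressors of CDH1 are known to bind.
JUP at chr17:41785977-41786226, minus strand: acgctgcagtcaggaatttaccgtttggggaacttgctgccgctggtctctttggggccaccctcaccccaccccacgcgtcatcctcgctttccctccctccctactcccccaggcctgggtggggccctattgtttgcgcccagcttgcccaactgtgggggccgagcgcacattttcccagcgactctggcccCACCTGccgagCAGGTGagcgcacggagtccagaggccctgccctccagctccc
JUP at chr17:41786712-41786961, minus strand: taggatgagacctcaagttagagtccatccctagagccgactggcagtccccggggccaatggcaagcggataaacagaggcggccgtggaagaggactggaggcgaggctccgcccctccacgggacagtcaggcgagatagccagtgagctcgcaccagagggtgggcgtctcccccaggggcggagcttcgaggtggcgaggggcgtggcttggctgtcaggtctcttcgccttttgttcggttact
CTNNB1 at chr3:41199255-41199504, plus strand: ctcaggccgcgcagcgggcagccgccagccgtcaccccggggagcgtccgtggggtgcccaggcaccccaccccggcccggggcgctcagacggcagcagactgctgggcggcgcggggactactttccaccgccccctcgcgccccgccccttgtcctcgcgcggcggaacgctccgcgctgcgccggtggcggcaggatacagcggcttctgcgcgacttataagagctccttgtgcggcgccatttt
CDH2 at chr18:28177131-28177380, minus strand: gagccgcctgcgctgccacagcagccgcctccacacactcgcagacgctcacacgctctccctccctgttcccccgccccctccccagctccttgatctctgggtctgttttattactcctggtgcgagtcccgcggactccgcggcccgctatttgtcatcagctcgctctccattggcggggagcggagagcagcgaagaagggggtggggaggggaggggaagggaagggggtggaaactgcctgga
The first JUP window held 2 E-boxes that do not overlap, at positions -54 and -43 from the start site, and the other printed windows held 0. Of 35116 RefSeq windows of this length, 17.5% held at least 1 and 2.5% at least 2. The GC box GGGCGG (either strand) was found 0 and 2 times in the JUP windows, 3 times in that of CTNNB1 and 1 time in the printed window of CDH2, and in 42.6% of all windows. Another CDH2 window, at chr18:28036642-28036891, is not printed and held 0 E-boxes and 0 GC boxes. Such matches describe letters, not binding.

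Alpha-catenin, the link to actin, rose slightly. CTNNA1 (ENSG00000044115, chromosome 5, 138610967 to 138935034, plus strand) had 235.0, 229.9 and 225.3 CPM in KDM4A plasmid libraries, against 190.6, 198.4 and 198.3 CPM in control plasmid libraries. All KDM4A plasmid libraries were above all controls, and the log2 fold change was 0.23 (SE 0.05, adjusted p = 3.86e-04). It was not called when tested against a 1.2-fold change (adjusted p = 0.555, within a range of 7.81e-09 to 0.555 over all settings). HCT8 sublines that lack alpha-catenin protein have been described, and gene counts do not show whether a transcript is intact. Per kilobase, CTNNA1 stood at 0.554 ± 0.00766 of CTNNB1 with the KDM4A plasmid and 0.498 ± 0.0305 with the control plasmid (SD, n = 3).

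The p120-catenin gene, whose product keeps cadherins at the membrane, rose about 2-fold. CTNND1 (ENSG00000198561, chromosome 11, 57753243 to 57819546, plus strand) had 22.4, 17.8 and 19.8 CPM in KDM4A plasmid libraries, against 9.60, 9.28 and 9.86 CPM in control plasmid libraries. The groups did not overlap, and the spread among KDM4A plasmid libraries (SD 11.4% of the mean) was wider than counting error (5.25%). The log2 fold change was 1.05 (SE 0.10, adjusted p = 2.04e-08), and it was 1.60 with GC and length trends removed. Its counted level was 0.0270 ± 0.00259 of CTNNB1 per kilobase with the KDM4A plasmid and 0.0137 ± 0.000547 with the control plasmid. The table also holds 2 protein-coding genes that overlap CTNND1 on its own strand. Reads in shared exons may have been given to no gene, so the level of CTNND1 and its place among the 9 genes are uncertain.

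EPCAM changed most of the 9. The gene (ENSG00000119888, chromosome 2, 47345158 to 47387601, plus strand) had 350.5, 320.1 and 319.5 CPM in KDM4A plasmid libraries, against 18.8, 17.6 and 19.6 CPM in control plasmid libraries. No control reached 20 CPM and no KDM4A plasmid library was below 300 CPM. The log2 fold change was 4.14 (SE 0.07, adjusted p = 1.68e-18), and 2.21% of all genes tested had a larger one in either direction. Per kilobase, EPCAM stood at 6.70 ± 0.265 times CDH1 with the KDM4A plasmid and 2.37 ± 0.0384 times CDH1 with the control plasmid.

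**Figure D3:**
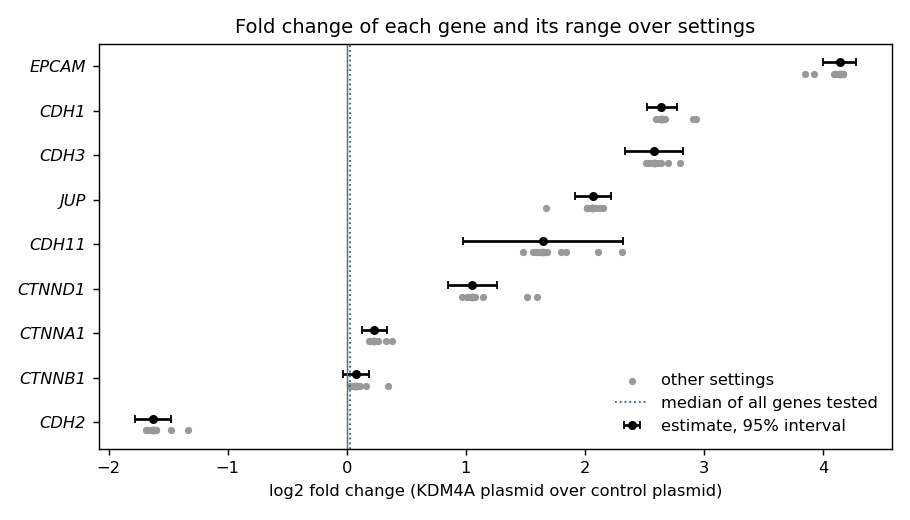
Log2 fold change (KDM4A plasmid over control plasmid) of the 9 genes; black points with bars are the estimates with 95% intervals, grey points the values under the other settings, and the dotted line the median of all genes tested. Signs are the same under every setting run for each gene, and the values of CTNNB1 lie between 0.03 and 0.35.

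Ordered by level per kilobase, the 9 genes differed in rank between the groups. With the KDM4A plasmid EPCAM came first at 213.3 CPM per kb, followed by CTNNB1 at 110.7, CTNNA1 at 61.3, CDH1 at 31.8, JUP at 26.8, CDH2 at 4.32, CDH3 at 3.76, CTNND1 at 3.0 and CDH11 at 0.167 CPM per kb. No neighbours in that order overlapped between single libraries. With the control plasmid the order was CTNNB1 at 104.9 CPM per kb, CTNNA1 at 52.2, CDH2 at 13.4, EPCAM at 12.1, JUP at 6.41, CDH1 at 5.09, CTNND1 at 1.44, CDH3 at 0.621 and CDH11 at 0.0519 CPM per kb. There CDH2 and EPCAM overlapped and could not be ordered. The 4 cadherins together had 0.291 ± 0.00554 of the per-length level of CTNNB1 plus JUP with the KDM4A plasmid, and 0.172 ± 0.0134 with the control plasmid.

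**Figure D4:**
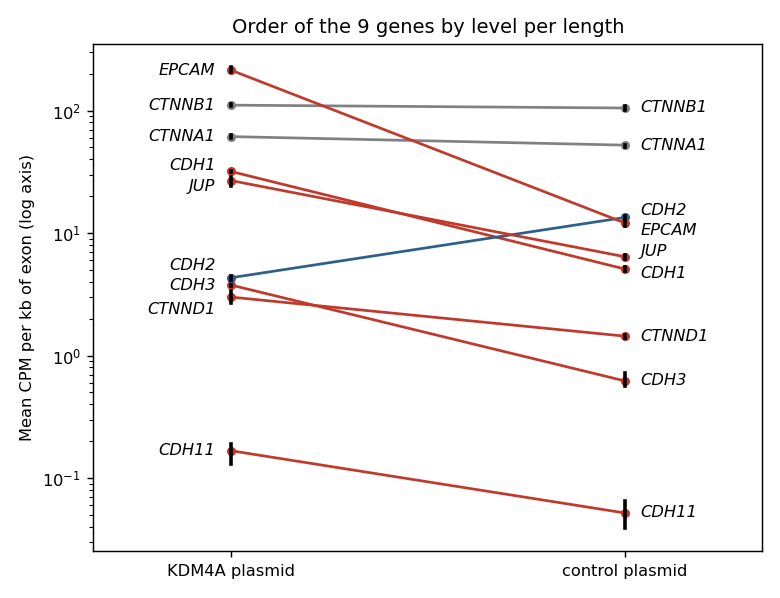
Mean CPM per kb of exon (log axis) of the 9 genes with the KDM4A plasmid (left) and the control plasmid (right); black bars span the 3 libraries. Red lines mark genes over 1.5-fold higher with the KDM4A plasmid, the blue line CDH2, and grey lines CTNNB1 and CTNNA1; EPCAM is the highest at left and lies below CDH2 at right.

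Among 9712 protein-coding genes averaging at least 10 CPM, profiles over the 6 libraries were compared by Euclidean distance of centred log2(CPM + 0.5), which mainly reflects the size of the group difference. Nearest to EPCAM were the EGF receptor ligand AREG (distance 0.0992), MLKL (0.15), an effector of necroptosis, and TSPAN8 (0.166), a tetraspanin. AREG averaged 119.5 ± 5.15 CPM with the KDM4A plasmid and 6.59 ± 0.605 CPM with the control plasmid. Nearest to CDH1 were the RNA-binding gene RBM47 (0.122), the cyclin gene CCND1 (0.125) and the ferritin gene FTH1 (0.125). Nearest to CDH2 were ARID4A (0.0512), INTS2 (0.0774) and the zinc transporter gene SLC39A10 (0.102). Such nearness was common for CDH2, with 451 genes within a distance of 0.5, against 52 for EPCAM and 76 for CDH1.

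The lists that follow are read beside the shares over all genes tested, of which 40.0% were called higher and 38.6% lower. Some list genes passed the filter on low counts only through the group where they were higher. They are included in the counts and medians, and their calls depend on that selection. Of 9 known partners of EPCAM, 9 were tested and 9 rose, with a median log2 fold change of 4.09 beside 0.03 for all genes tested. TSPAN8, found in complexes with EPCAM, averaged 27.4 ± 1.80 CPM with the KDM4A plasmid and 1.23 ± 0.108 CPM with the control plasmid (log2 fold change 4.45, SE 0.12).

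Other cadherins were split. Of 19 genes, 7 had enough counts to be tested, of which 3 rose and 4 fell, with a median of -1.05. CDH17, the intestinal cadherin, averaged 117 ± 0.591 CPM with the KDM4A plasmid and 8.74 ± 0.985 CPM with the control plasmid (log2 fold change 3.74, SE 0.07), and per kilobase it stood at 31.8 CPM per kb with the KDM4A plasmid, beside 31.8 for CDH1. CDH15, a muscle cadherin, rose by 2.27 (SE 0.41) from few counts (40 with the KDM4A plasmid and 9 with the control plasmid over 3 libraries). The falls were largest for CDH12 (-2.10, SE 0.32) and CDH23 (-1.62, SE 0.19), a cadherin of sensory hair cells, both with means under 5 CPM. CDH23 was at -0.89 with length trends removed, and CDH15 at 1.64 with GC and length trends removed. CDH15 passed the filter on low counts only through the KDM4A plasmid libraries, and CDH12 only through the control plasmid libraries. For both, the call and SE depend on a selection by the group where the gene was higher. The other 12 could not be tested, and with 0 counts were CDH9, CDH19 and CDH20 in KDM4A plasmid libraries and CDH5, CDH6, CDH13, CDH19 and CDH20 in control plasmid libraries.

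Of 18 other adherens junction genes, 15 were tested, of which 11 rose, 3 fell and 1 did not pass (median 0.47). The nectins, adhesion molecules that start the junction, moved in both directions. NECTIN2 averaged 97.7 ± 4.69 CPM with the KDM4A plasmid and 31.4 ± 2.06 CPM with the control plasmid (log2 fold change 1.64, SE 0.06), and NECTIN4 rose by 1.82 (SE 0.37) at means under 1 CPM. NECTIN3 averaged 22.3 ± 0.853 CPM and 57.8 ± 2.23 CPM (-1.38, SE 0.06). Afadin (AFDN), which ties nectins to actin, fell by 0.82 on the log2 scale (SE 0.06). With GC and length trends removed AFDN was at -0.17 and NECTIN3 at -0.77. NECTIN4 passed the filter on low counts only through the KDM4A plasmid libraries, where it was higher, so its call depends on that selection.

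Desmosome genes, whose products share JUP with the adherens junction, showed no common direction. Of 10, 7 were tested, of which 3 rose, 3 fell and 1 did not pass (median -0.01). The plakophilin gene PKP3 averaged 33.8 ± 3.77 CPM with the KDM4A plasmid and 1.11 ± 0.0660 CPM with the control plasmid (log2 fold change 4.92, SE 0.13), and PKP1 rose by 3.37 (SE 0.33). The desmosomal cadherins DSC3 (-1.87, SE 0.06) and DSG2 (-0.50, SE 0.06) fell, but the sign of DSG2 turned (0.09) after removal of GC and length trends. In that setting DSC3 was at -1.08 and PKP3 at 4.25, and 5 of the tested genes were called higher and 1 lower. PKP1 was at 4.02 without control plasmid replicate 2. It passed the filter on low counts only through the KDM4A plasmid libraries, where it was higher, so its call depends on that selection.

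Of 12 genes for the complex that degrades beta-catenin and its regulators, all tested, 4 rose, 7 fell and 1 did not pass (median -0.50). With length trends removed 5 rose and 5 fell, and with GC and length trends removed 6 rose and 5 fell. The falls were largest for the tankyrases TNKS2 (-1.12, SE 0.06) and TNKS (-1.0, SE 0.06), which mark axin for degradation and so act against the complex. With GC and length trends removed TNKS2 was at -0.48 and TNKS at -0.14, and with length trends alone removed TNKS was at -0.33. AXIN2, an axin that is also a target of Wnt signaling, averaged 112 ± 6.07 CPM with the KDM4A plasmid and 9.01 ± 0.0548 CPM with the control plasmid (3.64, SE 0.07). APC2 rose by 1.22 (SE 0.33) from few counts, 58 with the KDM4A plasmid and 28 with the control plasmid, and was at 1.90 with length trends removed. APC2 passed the filter on low counts only through the KDM4A plasmid libraries, where it was higher, so its call depends on that selection.

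Of 10 nuclear partners of beta-catenin and p120-catenin, 4 rose, 2 fell and 4 did not pass (median 0.11). The TCF factor gene TCF7 averaged 34.9 ± 0.862 CPM with the KDM4A plasmid and 9.65 ± 0.276 CPM with the control plasmid (log2 fold change 1.85, SE 0.08), and the co-factor gene BCL9L rose by 1.37 (SE 0.09). PYGO1, another co-factor (-1.41, SE 0.10), and ZBTB33 (Kaiso), a DNA-binding partner of p120-catenin (-1.33, SE 0.06), fell. With GC and length trends removed PYGO1 was at -0.35 and ZBTB33 at -0.67, and 4 genes were called lower. With length trends alone removed PYGO1 was at -0.80.

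Of 11 genes for cleavage and turnover of cadherins and EPCAM, 7 rose, 3 fell and 1 did not pass (median 0.55). The protease gene MMP7 had 200 counts in KDM4A plasmid libraries and 2 in control plasmid libraries, a ratio of 112.7 (95% counting interval 30.8 to 937.2). MMP7 passed the filter on low counts only through the KDM4A plasmid libraries, where it was higher, so its call depends on that selection. The kallikrein KLK6 averaged 76.0 ± 0.402 CPM with the KDM4A plasmid and 1.60 ± 0.283 CPM with the control plasmid (log2 fold change 5.57, SE 0.10). The small fall of CBLL1, a ubiquitin ligase of E-cadherin (-0.24, SE 0.06), rested on the setting. With GC and length trends removed the log2 fold change was 0.15, and against a fold of 1.2 CBLL1 was not called (adjusted p = 0.46). Over all settings the adjusted p lay between 0.000533 and 0.46.

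Transcription factors known to repress CDH1 differed among themselves. Of 10, 9 were tested, of which 2 rose, 5 fell and 2 did not pass (median -0.57). ZEB1 averaged 13.2 ± 0.956 CPM with the KDM4A plasmid and 43.6 ± 2.85 CPM with the control plasmid (log2 fold change -1.71, SE 0.08), and ZEB2 had 11.1 ± 2.23 CPM and 35.1 ± 2.44 CPM (-1.65, SE 0.10). SNAI1 (Snail) went the other way, with 5.00 ± 0.872 CPM and 0.728 ± 0.0554 CPM (2.76, SE 0.20), and TCF3 rose by 0.53 (SE 0.06). With GC and length trends removed ZEB1 was at -1.02, ZEB2 at -0.72 and SNAI1 at 2.17, and with length trends alone removed ZEB2 was at -1.01. Of 11 factors that maintain epithelial expression, 9 rose, 1 fell and 1 did not pass (median 3.0). Among the rises, FOXA2, OVOL1, OVOL2 and GRHL3 passed the filter on low counts only through the KDM4A plasmid libraries, where they were higher. Their calls, and the median, which is the value of FOXA2, depend on that selection. HNF4A rose by 4.20 (SE 0.15) and ELF3 by 4.17 (SE 0.11), and GRHL1, a grainyhead factor, fell by 0.61 (SE 0.12).

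**Figure D5:**
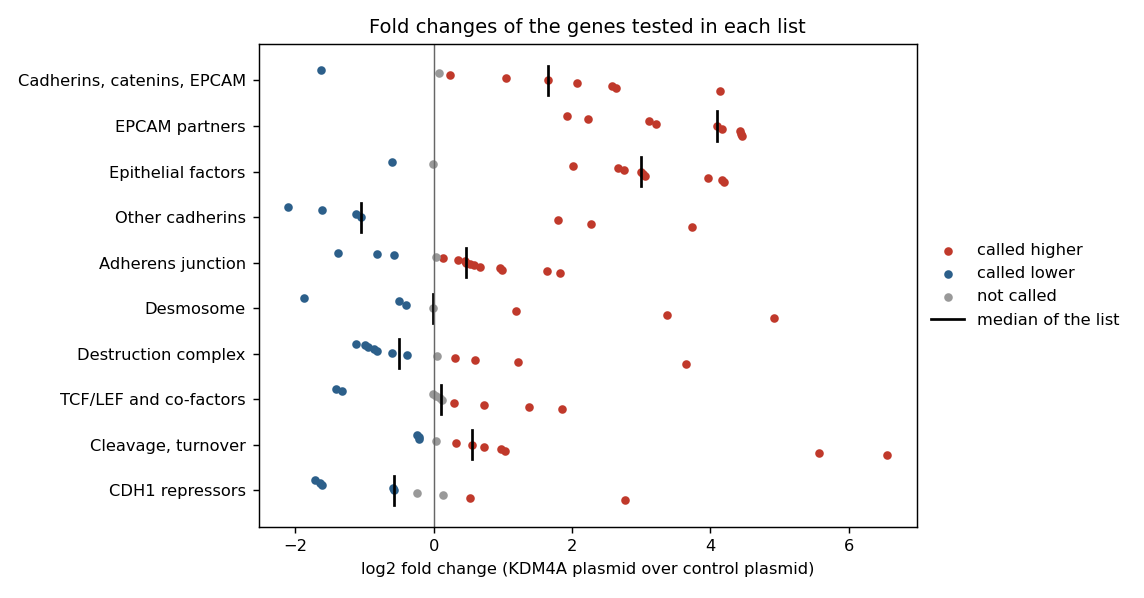
Log2 fold changes (KDM4A plasmid over control plasmid) of the tested genes of each list; red points were called higher, blue lower and grey not called, and black bars are list medians. The EPCAM partners lie at 1.92 or above, while the desmosome list is centred at -0.01.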

How the data were processed

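The authors deposited raw read counts per gene for 6 libraries, with exon lengths and GRCh38.p13 locations, per the file headers. HISAT2, HTSeq and GRCh38 are named per the submitters' processing notes, with versions and strand setting not given in the sources used here. Columns were assigned to samples by name, with 0 left over. Genes overlapping the 9 held at most 349 counts over a group (ULK4, in CTNNB1), which does not bound reads that counting gave to no gene. Some overlap on the same strand, among them those at CTNND1, CDH1 and EPCAM.

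Genes of the deposited count table passed filterByExpr (minimum count 10) and were scaled by TMM (factors 0.97 to 1.03). The test was edgeR 4.0.16 (R 4.3.3) quasi-likelihood with robust estimation, without covariates, adjusted over 17147 genes. SE is the log2 fold change over the square root of F. Levels are CPM as mean ± SD, and CPM per kb divides by exon length. Fold changes are KDM4A plasmid over control plasmid. The interval of a count ratio covers counting error only. The procedure was tested on simulated counts.

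The members and lists were chosen with earlier results of these data known. Named list genes are the 2 largest rises and 2 largest falls among called members; a few are not reported here. Alternatives were a replicate block, DESeq2 1.42.0, limma-voom 3.58.1, other scalings, filters and estimation, a test against 1.2-fold, a length trend, and leaving out each library. Removal of GC and length trends was added after the data were seen, with GC from GENCODE transcripts for 99.1% of tested genes.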

Additional observations from a re-analysis of the deposited data

How the results depend on the processing

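The calls of EPCAM, CDH1, CDH2, CDH3, CTNND1 and JUP held under each setting run, and that of CDH11 wherever it was tested. Without single libraries, 7 of the 9 were called higher and 1 lower in each case, and EPCAM's log2 fold change ranged from 4.09 to 4.17. Same-numbered libraries did not deviate together (r = -0.147, 0.0333 and -0.0904). With 3 libraries per group, this cannot show whether same-numbered libraries were handled as pairs. With the replicate number as a block, 6741 genes were called higher and 6501 lower, with 7 and 1 of the 9. Without a filter, 5 other cadherins were called higher. With length trends removed, 5 desmosome genes were called higher and 0 turnover genes lower. With GC and length trends removed, 5 desmosome genes were higher and 1 lower, 4 nuclear partners, 1 turnover gene and 2 epithelial factors were lower, DSG2 was at 0.09 and CBLL1 at 0.15. Against a 1.2-fold change, 0 turnover genes were called lower. The causes were not tested. From counts not divided by exon length, the CDH1 share was 81.3% with the KDM4A plasmid and 30.1% with the control plasmid, and the CDH2 share 9.22% and 66.1%. Depth limits CDH11 most, at 62 and 22 counts over 3 libraries.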
